A study of Mus musculus with 3 samples.

Results

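The 10 genes described here are markers of the endothelium that lines the liver sinusoids, measured in cultures of mouse hepatic stellate cells (HSCs). The 6 sinusoidal markers are *Clec4g*, *Fcgr2b*, *Stab1*, *Stab2*, *Lyve1* and *Mrc1*, and the 4 pan-endothelial markers are *Plvap*, *Kdr*, *Cdh5* and *Pecam1*. They were chosen by name, with earlier results of these data known. All 10 were found once in each of the 2 deposited tables, among 30595 symbols that occur once in each. HSCs were enriched on a Nycodenz density gradient from the livers of female wild-type mice (C57BL/6, more than 24 weeks of age), and were kept for 24 h in medium with 0.2% FBS. The typical yield is given per 2 mice, and the number of animals behind each culture is not given. The cells were then left untreated or given recombinant human FGF18 at 100 ng/mL or TGFb1 (TGFβ1) at 1 ng/mL for 24 h. According to the labels, 80 to 90% of the isolated cells were UV-positive, the autofluorescence of stored vitamin A, so the fraction also held other cells.

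Each table gives 1 value per gene and group, the authors' mean in TPM, a transcript abundance corrected for gene length and scaled to the same total in every library. Values of single libraries were not used here, so no SD, interval or p-value could be computed, and whether a difference exceeds the spread between libraries could not be assessed. A difference is given on the log2(TPM + 1) scale, stimulus minus untreated, and where a fold is printed it divides one group mean by the other. A gene was counted as measured in a comparison at 1 TPM or more in either group, and as lower or higher where the difference on the log2(TPM + 1) scale reached 2-fold. Genes of a few TPM can therefore pass 2-fold by the ratio of their means without being counted, which was the case for 0 of the 9 markers measured here and, below 1 TPM, for *Lyve1* with FGF18. Stellate cell identity was evident in the untreated cultures, where *Ecm1* stood at 1135 TPM, *Reln* at 208 TPM, *Lrat* at 151 TPM and *Des* at 148 TPM. Transcripts of cell types that a stellate cell culture should hold few of set a scale for low values: 20 markers of hepatocytes, cholangiocytes and lymphocytes had a median of 1.87 TPM and reached 7.56 TPM (*Cd3d*) in untreated cells, and they reached 6.82 TPM with FGF18 and 10.4 TPM with TGFβ1.

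Liver sinusoidal endothelial cells are the fenestrated cells that separate blood from the space of Disse, where stellate cells lie against them. They take up waste molecules from blood through scavenger and lectin receptors, among them the stabilins, the mannose receptor and the inhibitory Fc receptor for IgG. In chronic injury they can lose fenestrae and scavenger receptors, a change known as capillarization, while general endothelial junction and adhesion molecules are kept. Several of the markers are not exclusive to the endothelium: *Mrc1*, *Stab1*, *Lyve1* and *Fcgr2b* are also known from macrophages, and *Pecam1* from platelets and leukocytes.

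Promoters of 4 markers are shown. *Clec4g*, *Mrc1* and the pan-endothelial *Kdr* were at least 2-fold lower with TGFβ1, and the sinusoidal *Stab2* was not lower with either stimulus. These promoters are RefSeq sequences of build GRCm38.p6, matched by symbol for 6 of the 10 markers. Each runs from 250 bases before the start site in the direction of the gene. It stops at the start site or before the first base in an annotated exon of GENCODE M21. Capitals mark the ETS core AGGAAG, the GATA site AGATAA and the SMAD box CAGAC on either strand, where adjoining copies run together. The windows lie at chr8:3720652-3720901 (minus strand), chr2:14229164-14229391 (plus strand), chr5:75978459-75978705 (minus strand) and chr10:87008026-87008192 (minus strand).
Clec4g: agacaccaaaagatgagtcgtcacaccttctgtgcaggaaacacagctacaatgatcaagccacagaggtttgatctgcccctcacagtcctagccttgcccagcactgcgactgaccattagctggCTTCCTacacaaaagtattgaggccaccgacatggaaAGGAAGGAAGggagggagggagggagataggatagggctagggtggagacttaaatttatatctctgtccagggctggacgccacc
Mrc1: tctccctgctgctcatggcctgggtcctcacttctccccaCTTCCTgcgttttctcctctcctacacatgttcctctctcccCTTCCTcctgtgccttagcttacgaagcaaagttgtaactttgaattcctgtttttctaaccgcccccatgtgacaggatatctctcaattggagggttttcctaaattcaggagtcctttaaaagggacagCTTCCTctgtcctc
Kdr: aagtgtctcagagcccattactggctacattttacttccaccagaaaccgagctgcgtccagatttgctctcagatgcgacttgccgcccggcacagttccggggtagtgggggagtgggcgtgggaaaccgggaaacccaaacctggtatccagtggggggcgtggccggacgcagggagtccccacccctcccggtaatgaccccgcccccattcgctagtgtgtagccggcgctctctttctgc
Stab2: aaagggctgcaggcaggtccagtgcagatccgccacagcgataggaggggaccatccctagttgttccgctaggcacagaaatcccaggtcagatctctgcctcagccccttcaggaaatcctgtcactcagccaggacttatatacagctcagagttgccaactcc
Within the full 250 bases, the ETS core occurred 3 times at *Clec4g*, of which 2 copies overlap, 3 times at *Mrc1*, 1 time each at *Stab1* and *Stab2*, and not at *Fcgr2b* or *Kdr*. Of 32851 promoter windows of this length, 29.5% held it. No GATA site was found at these 6 markers, against 9.99% of windows. The SMAD box occurred 2 times at *Fcgr2b* and 1 time each at *Stab1* and *Stab2*, against 42.2% of windows. For *Fcgr2b* and *Stab2* the matches lie past the first base that an annotated exon covers, where a printed run stops, and they are not printed. The matches are letters in a window and not measured binding.

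The highest marker in untreated cells was *Plvap*, which encodes the protein of the diaphragms that span fenestrae and caveolae, at 238 TPM. *Fcgr2b*, the inhibitory receptor through which sinusoidal cells bind IgG immune complexes, followed at 143 TPM, and *Pecam1*, the adhesion molecule CD31 of endothelial junctions, at 103 TPM. These 3 levels exceeded those of 96.9%, 94.7% and 92.4% of measured genes. *Stab1*, a scavenger receptor of the stabilin family, stood at 55.5 TPM, *Kdr*, the main signaling receptor for VEGF, at 17.0 TPM, and *Clec4g*, the lectin LSECtin of sinusoidal cells, at 16.5 TPM. The remaining levels were low. *Cdh5*, the VE-cadherin of endothelial junctions, stood at 9.11 TPM, *Mrc1*, the mannose receptor, at 8.47 TPM, *Stab2*, which clears hyaluronan from blood, at 5.48 TPM, and *Lyve1*, another hyaluronan receptor, at 0.863 TPM. *Stab2* and *Lyve1* thus lay within the values reached by hepatocyte, cholangiocyte and lymphocyte markers, and *Lyve1* was under 1 TPM in all 3 groups, so 9 of the 10 markers were measured. Without values per library, neighbors in this order cannot be said to differ.

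**Figure D1:**
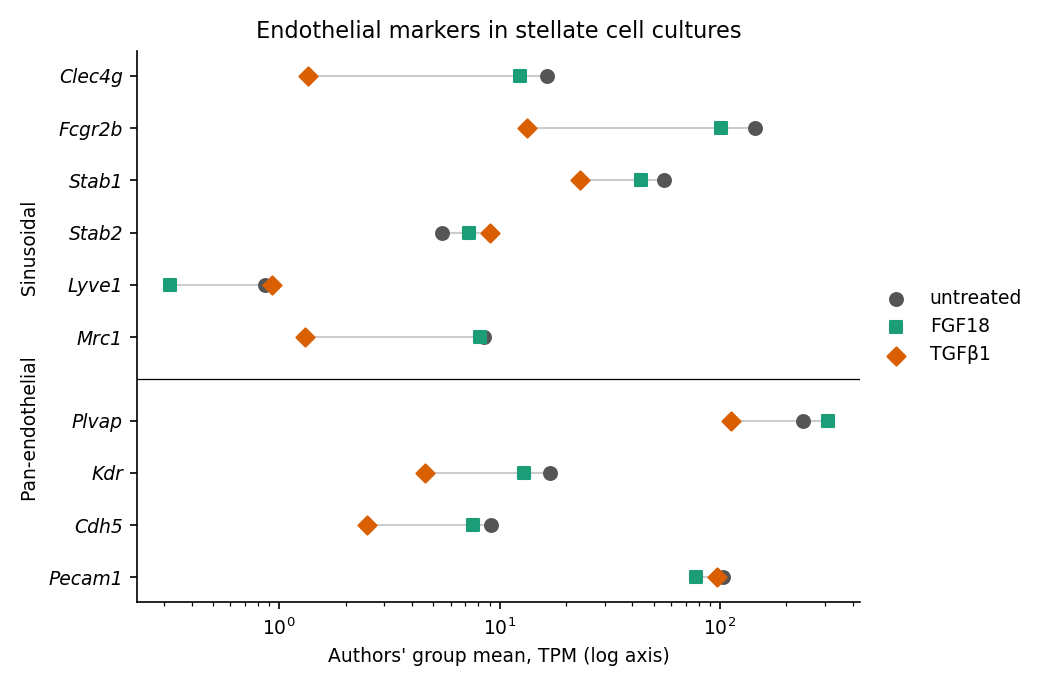
Authors' mean level of each marker in untreated, FGF18 and TGFβ1 cultures, in TPM on a log axis, with sinusoidal markers above the line and pan-endothelial markers below it; each symbol is 1 group mean, without an error bar. The TGFβ1 symbol of *Fcgr2b* lies at 13.3 TPM against 143 TPM untreated, whereas the 3 symbols of *Pecam1* lie between 77.7 and 103 TPM.

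With TGFβ1, most endothelial markers stood lower than in untreated cells, and *Clec4g* and *Fcgr2b* were lowest relative to their untreated level. Of the 9 measured markers, 7 were at least 2-fold lower, namely 4 of 5 sinusoidal and 3 of 4 pan-endothelial markers, and 0 were at least 2-fold higher. Over all 22939 measured genes, 5.09% were at least 2-fold lower and 5.27% at least 2-fold higher. The median difference was -2.04 over the sinusoidal markers and -1.30 over the pan-endothelial markers, where all measured genes had a median of -0.0017. Without *Mrc1*, *Lyve1*, *Stab1* and *Fcgr2b*, which macrophages also express, only *Clec4g* and *Stab2* are left of the sinusoidal set. In these bulk cultures, fewer endothelial cells and less RNA of a gene per cell cannot be told apart.

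Among the sinusoidal markers, the level of *Fcgr2b* was 143 TPM in untreated cells, 101 TPM with FGF18 and 13.3 TPM with TGFβ1. It was 10.7-fold lower with TGFβ1 than untreated, a log2 difference of -3.33 and the 20th lowest of all measured genes. The level of *Clec4g* was 16.5 TPM untreated, 12.4 TPM with FGF18 and 1.35 TPM with TGFβ1, 12.2-fold lower with TGFβ1 (log2 difference -2.89, the 39th lowest). Both genes had their high values in untreated and FGF18 cultures and a single low value with TGFβ1. *Mrc1* was close to its untreated level with FGF18, at 8.13 against 8.47 TPM, and stood at 1.31 TPM with TGFβ1. Its TGFβ1 difference was -2.04 on the log2 scale, or 6.47-fold lower, and ranked 158th from the lowest. *Stab1* was at 55.5 TPM untreated, 43.8 TPM with FGF18 and 23.3 TPM with TGFβ1, and its 2.38-fold lower level with TGFβ1 corresponds to a log2 difference of -1.22. The stabilins thus differed in direction, because *Stab2* was at 5.48 TPM untreated, 7.29 TPM with FGF18 and 9.08 TPM with TGFβ1. The *Stab2* mean with TGFβ1 was 1.65-fold above untreated (log2 difference 0.64), at a level that *Cd3d* also reached in that group. *Lyve1*, at 0.863, 0.321 and 0.929 TPM in the same order, was not measured. With TGFβ1, the levels of *Clec4g*, *Mrc1* and *Stab2*, and of the pan-endothelial *Kdr* and *Cdh5*, lay within the range of the hepatocyte, cholangiocyte and lymphocyte markers.

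Among the pan-endothelial markers, *Kdr* was at 17.0 TPM untreated, 12.9 TPM with FGF18 and 4.61 TPM with TGFβ1. Its TGFβ1 level was 3.69-fold lower than untreated (log2 difference -1.68), and that of *Cdh5* was 3.62-fold lower (log2 difference -1.52), from 9.11 TPM untreated and 7.55 TPM with FGF18 to 2.52 TPM. The VEGF receptor and the junction cadherin were thus lower by nearly the same factor. *Plvap* was at 238 TPM untreated, 308 TPM with FGF18 and 112 TPM with TGFβ1, which is 2.12-fold lower with TGFβ1 (log2 difference -1.08), close to the 2-fold limit. *Pecam1* stayed within 2-fold, with 103 TPM untreated, 77.7 TPM with FGF18 and 96.8 TPM with TGFβ1. Its TGFβ1 difference was -0.08, and 41.6% of measured genes had a lower one.

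With FGF18, 0 of the 9 measured markers were at least 2-fold lower and 0 at least 2-fold higher. Of 22383 measured genes, 6.65% were at least 2-fold lower and 3.15% at least 2-fold higher, with a median of -0.13. The sinusoidal markers had a median difference of -0.33 and the pan-endothelial markers of -0.30. *Fcgr2b* had the lowest value among the measured markers at -0.50, or 1.42-fold lower, and *Plvap* the highest at 0.37, or 1.29-fold higher. *Clec4g* (-0.38), *Pecam1* (-0.40), *Kdr* (-0.37), *Stab1* (-0.33) and *Cdh5* (-0.24) lay on the lower side, *Mrc1* at -0.05 and *Stab2* at 0.36. The middle 50% of all genes spanned -0.46 to 0.16, which holds 6 of these 9 log2 differences.

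**Figure D2:**
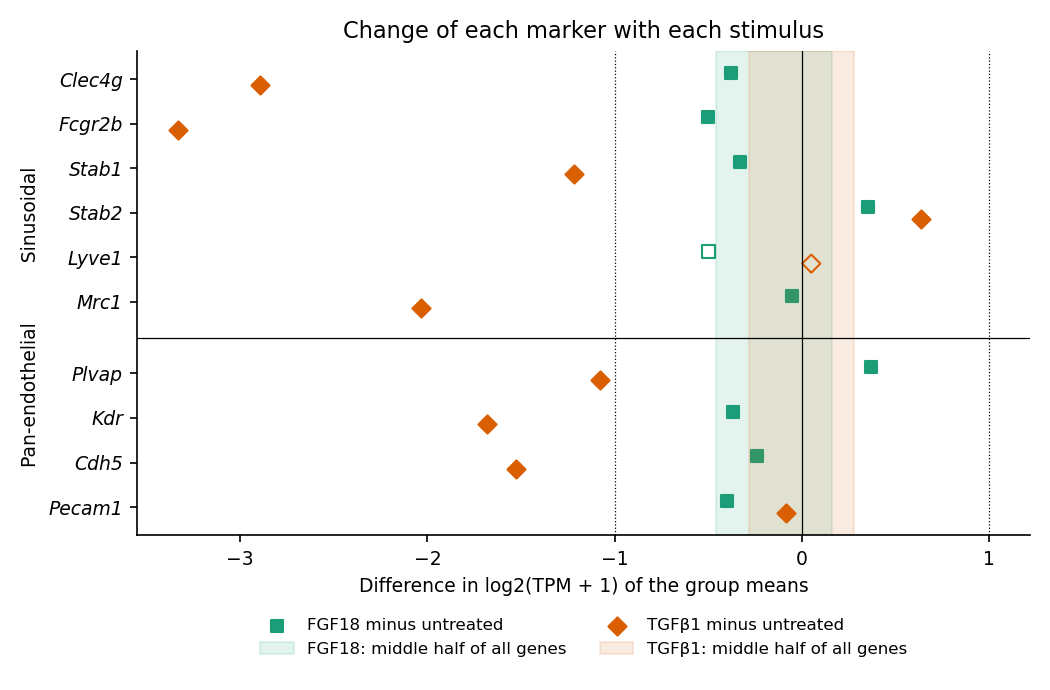
Difference of each marker from untreated in log2(TPM + 1), for FGF18 (squares) and TGFβ1 (diamonds); shaded bands span the middle 50% of all measured genes, dotted lines mark 2-fold, and open symbols show *Lyve1*, which was under 1 TPM. With TGFβ1, 7 markers lie left of the 2-fold line, from *Plvap* at -1.08 to *Fcgr2b* at -3.33, and with FGF18 none lies beyond either line.

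Both comparisons use the same untreated group, so the stimuli were also set against each other. Of the 9 markers measured there, 6 were at least 2-fold lower with TGFβ1 than with FGF18 and 0 at least 2-fold higher, where 2.83% of 22005 genes were lower and 5.78% higher by that much. *Clec4g* was 9.19-fold lower with TGFβ1 than with FGF18, *Fcgr2b* 7.58-fold and *Mrc1* 6.21-fold. The pan-endothelial *Cdh5*, *Kdr* and *Plvap* were 3.00-fold, 2.81-fold and 2.74-fold lower. *Stab1* was 1.88-fold lower, *Pecam1* 1.25-fold higher and *Stab2* 1.24-fold higher with TGFβ1 than with FGF18. The median log2 difference between the stimuli, TGFβ1 minus FGF18, was -1.98 for sinusoidal and -1.30 for pan-endothelial markers.

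The sinusoidal and pan-endothelial sets were then compared by their summed levels. The 6 sinusoidal markers summed to 230.2 TPM in untreated cells, 173 TPM with FGF18 and 49.3 TPM with TGFβ1, and the 4 pan-endothelial markers to 367, 406 and 216 TPM. The sinusoidal sum was therefore 0.628 of the pan-endothelial sum in untreated cells, 0.427 with FGF18 and 0.228 with TGFβ1. A single gene weighs heavily in each sum, since *Fcgr2b* made up 62.3% of the sinusoidal sum in untreated cells and 27.1% with TGFβ1, and *Plvap* with *Pecam1* made up 92.9% to 96.7% of the pan-endothelial sum. Without *Fcgr2b*, left out after the values were seen, the ratio was 0.237 in untreated cells, 0.177 with FGF18 and 0.166 with TGFβ1. The sets overlapped in their single genes: *Stab1* had a smaller TGFβ1 difference than *Kdr* and *Cdh5*, and the *Stab2* difference of 0.64, within 2-fold, lay above those of the pan-endothelial markers. With 5 and 4 genes that share the same cultures, the difference between the sets was not tested.

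Levels relative to *Cdh5* in the same group, a reference chosen after the values were seen, show how unequal the markers were among themselves. *Kdr* kept a nearly constant ratio to *Cdh5*, at 1.86 in untreated cells, 1.71 with FGF18 and 1.83 with TGFβ1. *Fcgr2b* went from 15.7 times the *Cdh5* level in untreated cells and 13.4 times with FGF18 to 5.31 times with TGFβ1, and *Clec4g* from 1.81 and 1.65 to 0.538. The ratio of *Pecam1* to *Cdh5* was 11.3 untreated, 10.3 with FGF18 and 38.5 with TGFβ1, and that of *Stab1* 6.09, 5.80 and 9.25. *Stab2* was 0.602 times the *Cdh5* level untreated, 0.966 with FGF18 and 3.61 with TGFβ1. The *Cdh5* level with TGFβ1 was only 2.52 TPM, so the last ratio of each series rests on a low value. Relative to *Pecam1* instead, *Stab1* was at 0.540 in untreated cells, 0.564 with FGF18 and 0.241 with TGFβ1, the opposite direction with TGFβ1, and *Kdr* at 0.165, 0.167 and 0.0476. *Fcgr2b* (1.40, 1.30 and 0.138) and *Clec4g* (0.160, 0.160 and 0.0140) were lower with TGFβ1 on either reference.

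**Figure D3:**
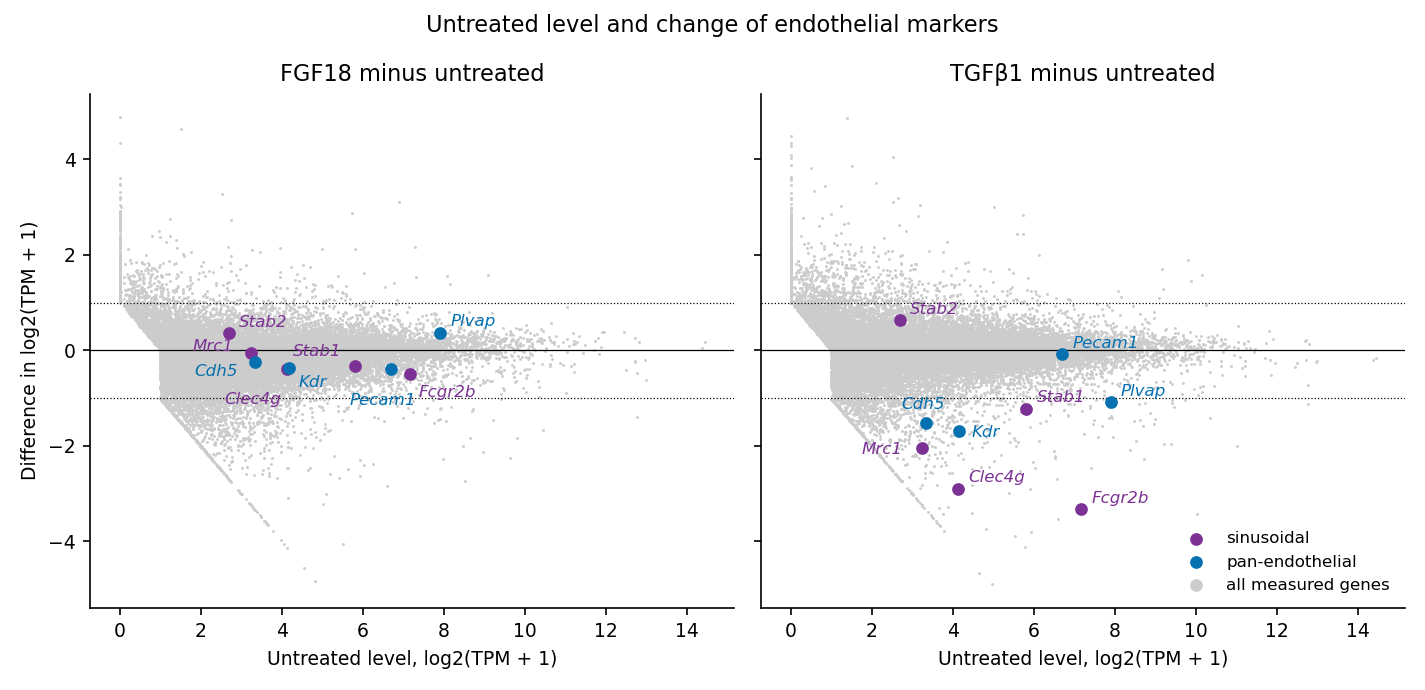
Untreated level, log2(TPM + 1), against the difference from untreated for FGF18 (left) and TGFβ1 (right), with every measured gene in grey, sinusoidal markers in purple and pan-endothelial markers in blue; dotted lines mark 2-fold. With TGFβ1, *Fcgr2b* at -3.33 and *Clec4g* at -2.89 lie well below the cloud of genes of their level, while *Pecam1* at -0.08 lies inside it.

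Lists of other endothelial genes also held members that were lower with TGFβ1 and members near their untreated level. Of 23 further sinusoidal genes, 22 were measured, and with TGFβ1 9 were at least 2-fold lower and 0 higher (median -0.70). Of all measured genes, 5.09% were lower and 5.27% higher by that much with TGFβ1, and 6.65% and 3.15% with FGF18. *Aass*, an enzyme of lysine breakdown, was 7.77-fold lower at 1.72 TPM against 13.4 TPM untreated, and *Cd36*, a scavenger receptor and fatty acid transporter, 5.40-fold lower at 11.5 TPM against 61.9 TPM. The *Aass* level with TGFβ1 lay within the range of the hepatocyte, cholangiocyte and lymphocyte markers. *Gata4*, a transcription factor of sinusoidal differentiation that stellate cells also express, was at 96.8 TPM untreated and 85.4 TPM with TGFβ1. *Rspo3*, a Wnt-enhancing ligand, was at 417 and 359 TPM. Which cells of the mixed cultures carried *Rspo3* was not tested. With FGF18, 0 of the 22 were lower and 2 higher, *Thbd*, the anticoagulant thrombomodulin (37.1 to 94.0 TPM), and the ligand *Bmp2* (50.2 to 107 TPM). *Bmp2* stood at 20.0 TPM with TGFβ1, 2.51-fold below untreated, and *Thbd* at 71.0 TPM. By the ratio of means, other genes of this list, all at low levels, passed 2-fold without being counted. With FGF18 they were *Wnt2* (lower), *Dll4* and *Cd209b* (both higher), and with TGFβ1 *Gpr182* and *Dll4* (both lower) and *Cd209b* (higher).

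Of 30 further pan-endothelial genes, 28 were measured, and with TGFβ1 11 were at least 2-fold lower and 0 higher (median -0.87). The shares of all measured genes were 5.09% lower and 5.27% higher with TGFβ1, and 6.65% and 3.15% with FGF18. *S1pr1*, the receptor for sphingosine-1-phosphate that stabilizes endothelial junctions, was 6.43-fold lower at 4.50 TPM against 28.9 TPM, and the adhesion receptor *Adgrl4* 4.45-fold lower. The angiopoietin receptor *Tek* and its relative *Tie1* were 4.89-fold and 3.83-fold lower. The TGFβ1 levels of *S1pr1*, *Adgrl4*, *Tek* and *Tie1* lay within the range of the hepatocyte, cholangiocyte and lymphocyte markers, so these folds rest on low values. The 4 most abundant members differed among themselves. *Egfl7*, a secreted endothelial protein named after its values were seen, was 3.01-fold lower, at 205 TPM untreated and 68.3 TPM with TGFβ1. *Calcrl*, a receptor component for adrenomedullin, was at 247 TPM untreated and 126 TPM with TGFβ1, and *Esam*, a junction protein that pericytes and stellate cells may also carry, at 213 and 118 TPM. *Eng*, the TGFβ co-receptor endoglin, was at 247 and 368 TPM. Which cells of the mixed cultures carried *Calcrl* and *Eng* was not tested. *Vwf*, *Cd34* and *Emcn*, named after their values were seen, were among the 17 measured genes within 2-fold with TGFβ1. Untreated and TGFβ1 levels were 13.0 and 12.4 TPM, 20.4 and 15.5 TPM, and 5.59 and 5.86 TPM. Both *Emcn* levels lay within the range of the hepatocyte, cholangiocyte and lymphocyte markers. With FGF18, 0 of the 28 were counted as past 2-fold in either direction (median -0.25), although *Sox18* and *Nos3*, both under 4 TPM, passed it by the ratio of their means. With TGFβ1, *Erg*, *Hhex*, *Sox18* and *Nos3* were also past 2-fold lower by that ratio without being counted.

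A list of 13 other genes of continuous endothelium and capillarization held 11 that were measured, of which 0 were counted as past 2-fold with either stimulus. Over all measured genes, 6.65% were lower and 3.15% higher by that much with FGF18, and 5.09% and 5.27% with TGFβ1. *Nos3*, endothelial nitric oxide synthase, passed 2-fold by the ratio of its means, at 1.44 TPM untreated, 3.58 TPM with FGF18 and 0.427 TPM with TGFβ1. The median difference of the 11 genes was -0.14 with FGF18 and -0.20 with TGFβ1. *Ednrb*, an endothelin receptor abundant in stellate cells, was the highest at 1156 TPM untreated, 1283 TPM with FGF18 and 687 TPM with TGFβ1. The adhesion molecules *Vcam1* and *Icam1* were at 144 and 58.9 TPM untreated and at 126 and 42.2 TPM with TGFβ1. This list shares *Cd34*, *Vwf*, *Emcn* and *Nos3* with the pan-endothelial list. *Plvap* belongs to it too and was left out of these counts as one of the 10 markers. It was 2.12-fold lower with TGFβ1 (log2 difference -1.08).

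**Figure D4:**
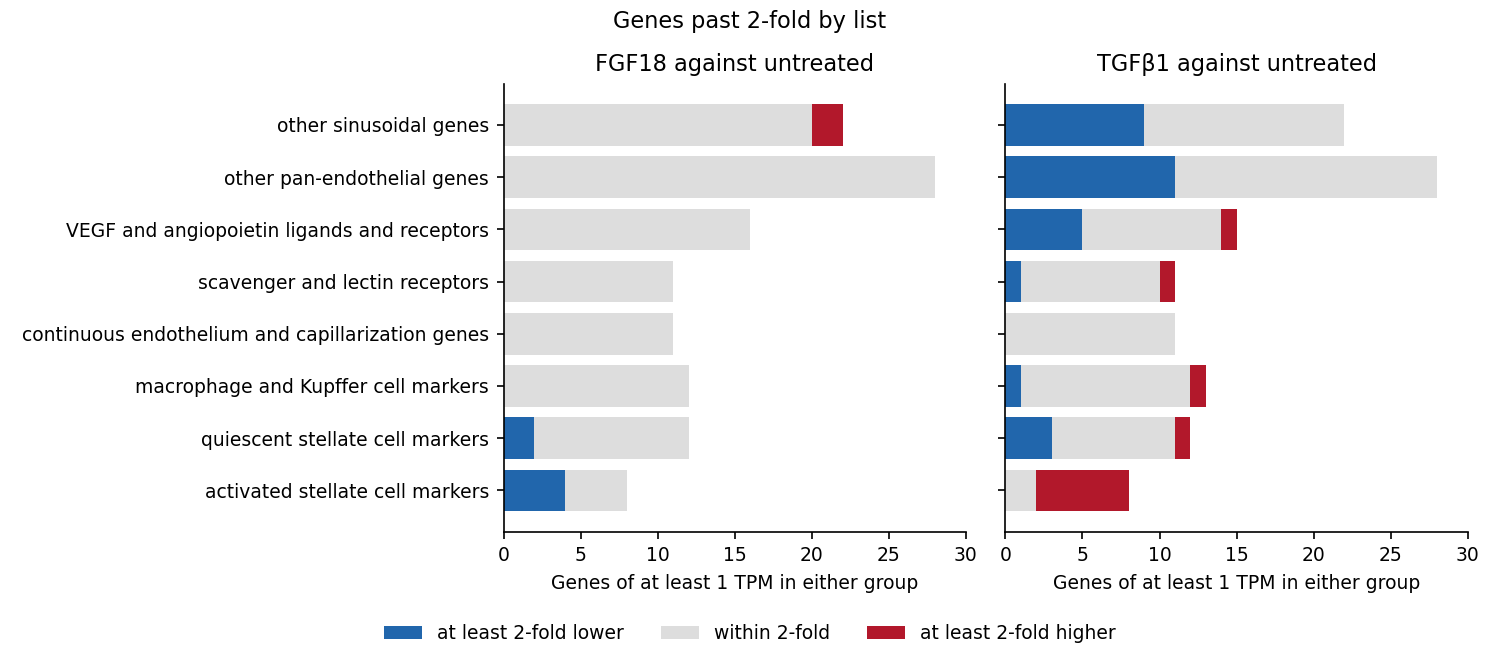
Number of measured genes of each list, the 10 markers left out, that were at least 2-fold lower (blue), within 2-fold (grey) or at least 2-fold higher (red) than untreated, for FGF18 (left) and TGFβ1 (right). With TGFβ1, 9 of 22 sinusoidal and 11 of 28 pan-endothelial genes are lower on the log2(TPM + 1) scale. Of the continuous endothelium genes, 0 of 11 are, beside 5.09% of all measured genes. *Plvap*, lower with TGFβ1 and also on the continuous endothelium list, is among the markers left out.

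Markers of macrophages were examined because 4 of the sinusoidal markers are shared with them. Of 20 macrophage and Kupffer cell genes, 19 were found once in each table, and their summed level was 190.2 TPM in untreated cells, 209.96 TPM with FGF18 and 227 TPM with TGFβ1. The defining *Clec4f* and *Adgre1* were near 0 in untreated cells, at 0.186 and 0.280 TPM, and *Csf1r* was at 2.27 TPM. With TGFβ1, 1 of 13 measured macrophage genes was at least 2-fold lower (*Fcer1g*, the Fc receptor gamma chain, at 23.3 TPM untreated and 8.88 TPM with TGFβ1) and 1 higher (*Laptm5*), and with FGF18 0 of 12 were counted as past 2-fold. Over all measured genes, 6.65% were lower and 3.15% higher by that much with FGF18, and 5.09% and 5.27% with TGFβ1. By the ratio of means, *C1qb* and *Cd5l* with TGFβ1 and *Vsig4* with FGF18, all at low levels, were past 2-fold higher without being counted. *Lyz2* was at 54.5 TPM untreated and 92.9 TPM with TGFβ1, and *Cd68* at 52.1 and 43.0 TPM. Without *Lyz2*, left out after the values were seen, the summed level was 135.7 TPM untreated, 165 TPM with FGF18 and 134 TPM with TGFβ1. The part of macrophages in the values of the shared markers was not tested. Of 4 measured lymphatic endothelial genes, which would share *Lyve1*, 0 were counted as past 2-fold with either stimulus, beside the same shares of all measured genes. Among the 4, *Reln*, at 208 TPM untreated, was read above as a stellate cell gene. *Prox1*, at 1.94 TPM untreated and 0.774 TPM with FGF18, was 2.51-fold lower by the ratio of its means.

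Stellate cell genes also differed between the same cultures. With TGFβ1, 6 of 8 activated stellate cell genes were at least 2-fold higher and 0 lower, and 3 of 12 quiescent stellate cell genes were lower and 1 higher. Among all measured genes, 5.09% were lower and 5.27% higher by that much with TGFβ1, and 6.65% and 3.15% with FGF18. *Col3a1*, a fibrillar collagen chain, was at 893 TPM untreated and 3323 TPM with TGFβ1, and *Lrat*, the enzyme that stores retinol as esters, was at 151 TPM untreated and 43.9 TPM with TGFβ1. With FGF18, 4 of the 8 activated genes were at least 2-fold lower, among them *Acta2*, smooth muscle actin, at 796 TPM untreated and 167 TPM with FGF18. Of the 12 quiescent genes, 2 were lower with FGF18, *Colec11* and *Lrat* (61.6 TPM), and 0 were higher. The part of these differences in the endothelial values, which are shares of the same total, was not tested.

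In the GENCODE M21 annotation of GRCm38, all 10 markers are protein-coding genes. *Clec4g* lies on chromosome 8 from 3707064 to 3720651, *Plvap* on chromosome 8 from 71497765 to 71511752 and *Cdh5* on chromosome 8 from 104101625 to 104144511. *Fcgr2b* lies on chromosome 1 from 170958617 to 170976547, *Mrc1* on chromosome 2 from 14229392 to 14332057 and *Kdr* on chromosome 5 from 75932827 to 75978458. *Lyve1* lies on chromosome 7 from 110850607 to 110863239, *Stab2* on chromosome 10 from 86841198 to 87008025, *Pecam1* on chromosome 11 from 106654217 to 106750628 and *Stab1* on chromosome 14 from 31139013 to 31168641.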

How the data were processed

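RNA-seq libraries of amplified cDNA from 3 groups, with 1 record each in the labels, were mapped to GRCm38 and normalized by the authors on the platform RaNA-seq. Neither aligner, counting program nor annotation was stated. The deposited values are the authors' mean TPM per group, in 2 tables, and sum to between 999985 and 999995. Replicate libraries were not analysed here, and the files give no read counts, so the depth behind each value is not known from them. A planned sequencing depth in the study's methods was not used. Columns carry no group names. The first was taken as untreated, as in the title of each table, and was identical in both (0 of 30595 symbols differed). The authors' fold changes, statistics and p-values were not used.

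Differences were computed with a pseudocount of 1 TPM, which understates changes of low genes (Python 3.11.15, numpy 2.4.6, pandas 2.3.3, matplotlib 3.10.9). Calling by fold was run on simulated group means without noise and without low levels. That run checks the arithmetic only and says nothing about the reliability of the calls. Markers and lists were chosen with earlier results of these data known. Named were the 10 markers, from each other list the 3 highest untreated levels and up to 2 largest differences past 2-fold per direction and comparison at 10 TPM or more, and the 6 genes most like the sinusoidal median. Others were named after their values were seen. Pseudocounts of 0.1 and 5 TPM, other minimum levels and limits, centering and shorter marker sets were tried.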

Additional observations from a re-analysis of the deposited data

How the results depend on the processing

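Over the alternatives for the marker counts and medians and the shares of all genes, 55 values stayed within 1.5-fold of the reported ones, 9 moved further, and no called value changed sign. Some of the 55 could not move. The counts of 0 with FGF18 must stay 0 under a stricter limit, a larger pseudocount, a higher minimum or a shorter set. The FGF18 medians of -0.33 and -0.30 are themselves smaller than a 1.5-fold difference. Without *Mrc1*, *Lyve1*, *Stab1* and *Fcgr2b*, 1 of 2 sinusoidal markers was at least 2-fold lower with TGFβ1 (median -1.13). At a 3-fold limit on the log2(TPM + 1) scale, 1 pan-endothelial marker was lower with TGFβ1, and by the ratio of means, an alternative chosen after seeing the data, 2 were. The sinusoidal median with TGFβ1 was -1.10 at a pseudocount of 5 TPM and -2.89 among markers of at least 10 TPM. Among all genes of at least 10 TPM, 2.69% were at least 2-fold lower and 1.30% higher with FGF18, and 2.71% lower and 2.61% higher with TGFβ1. By construction, a larger pseudocount shrinks low genes most and a higher minimum leaves fewer genes. For single markers, 5 of 60 values moved by over 1.5-fold. They were *Clec4g* (-3.51 and -1.76 at pseudocounts of 0.1 and 5 TPM), *Mrc1* (-1.09 at 5 TPM) and *Cdh5* (-0.91 at 5 TPM, then within 2-fold) with TGFβ1, and *Lyve1* (-1.20 at 0.1 TPM) with FGF18.

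No paired analysis was possible because the files hold 1 mean per group. Leaving out a replicate was not run for the same reason.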

Other observations

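Genes of VEGF and angiopoietin signaling, which maintain sinusoidal endothelium, were also read. Of 16 such genes found once in each table besides *Kdr*, 15 were measured with TGFβ1, where 5 were at least 2-fold lower and 1 higher. By that much, 5.09% of all measured genes were lower and 5.27% higher with TGFβ1, and 6.65% and 3.15% with FGF18. *Nrp2*, a VEGF co-receptor, was at 16.4 TPM untreated and 4.02 TPM with TGFβ1, and *Angpt2*, an angiopoietin named after its values were seen, at 8.20 and 1.92 TPM. The lower genes also included the receptors *Flt4*, *Tek* and *Tie1*. The TGFβ1 levels of all 5 lower genes lay within the range of the hepatocyte, cholangiocyte and lymphocyte markers. The ligand *Vegfa* was at 33.2 TPM untreated, 56.1 TPM with FGF18 and 70.7 TPM with TGFβ1. *Nrp1*, another co-receptor, was at 39.8, 34.1 and 24.0 TPM. With FGF18, 0 of 16 measured genes were counted as past 2-fold on the log2(TPM + 1) scale. *Angpt1*, at 4.04 TPM untreated and 1.55 TPM with FGF18, was 2.61-fold lower by the ratio of its means (log2 difference -0.98). The ligand *Pgf*, at 1.79 TPM untreated and 4.31 TPM with TGFβ1, was 2.41-fold higher by that ratio (log2 difference 0.93).

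Of 11 measured scavenger and lectin receptors other than the 10 markers, 1 was at least 2-fold lower with TGFβ1 (*Cd36*), where 5.09% of all measured genes were, and 1 higher (*Lrp1*, an endocytic receptor, at 119 TPM untreated and 248 TPM with TGFβ1). *Scarb1*, the receptor for high-density lipoprotein, was at 105 and 83.4 TPM, and *Scarb2*, a lysosomal membrane protein, at 174 and 199.6 TPM. *Scarf1*, a scavenger receptor named after its values were seen, was at 9.39 and 4.33 TPM, a log2 difference of -0.96.

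The median pair of the sinusoidal markers was -0.33 with FGF18 and -2.04 with TGFβ1 on the log2 scale. Of 6708 genes with at least 20 TPM in untreated cells, the 6 nearest to it over the 3 groups, by Euclidean distance, were *Selenop*, *Cxcl5*, *Adgrf5*, *Cd59a*, *Kit* and *Adgrl4*, at distances of 0.069 to 0.21. *Selenop*, the secreted selenium carrier, was at 667 TPM untreated, 522 TPM with FGF18 and 169 TPM with TGFβ1, and the neutrophil chemokine *Cxcl5* at 332, 272 and 77.2 TPM. *Kit* and *Adgrl4* are also on the endothelial lists.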
